A study of Mus musculus with 14 samples.

Results

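Glutathione peroxidases are a family named for reducing hydrogen peroxide and organic hydroperoxides with electrons taken from glutathione. The 6 genes described here are Gpx1, Gpx2, Gpx3, Gpx4, Gpx7 and Gpx8, out of 24054 genes in the expression tables. They were chosen by name, and the family was selected on its TPM and expected count pattern in these libraries, so the levels and fold changes of its members are given as a description and carry no test. Of the 8 glutathione peroxidase genes in the tables, Gpx5 and Gpx6 were not among the chosen members.

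The 14 libraries are low-input RNA-seq of sorted mouse embryonic stem cells (ESCs) or their derivatives, in 6 groups. The groups d0con and d0ko (n = 2 each) were ESCs kept without LIF on red-fluorescent, mitomycin-treated fibroblast feeders at day 0 and sorted as Cherry-negative cells. The groups d3con and d3ko (n = 3 each) were sorted as Venus-positive cells after 3 days of endoderm differentiation on Wnt3a-secreting feeders with 12 ng/ml Activin A. All 4 of these groups carry at least 1 allele in which an H2B-Venus cassette replaces the coding region of the pioneer factor Foxa2. The con cells keep the other allele intact, and in the ko cells both alleles are replaced. Each genotype was represented by 2 ESC clones, and replicates 1 and 3 of each day 3 group came from the same clone. The groups d2-FVFn and d2-FVFp (n = 2 each) came from a different line, made by lentivirus from ESCs homozygous for a Sox17-Cherry allele, with a doxycycline-inducible Foxa2-Venus fusion, grown on gelatin with LIF and serum, given 40 ng/ml doxycycline for 48 h and sorted as Venus-negative and Venus-positive cells. Feeders, medium and line differ between these groups and the other 4, so levels are set side by side across them without a test. All samples of a group came from 1 line or 2 clones, so p-values measure the spread between these samples only.

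Library totals ranged from 14142788 to 27278237 expected counts. Foxa2 was at 0.07 to 0.14 TPM (the length-scaled share of all transcripts) in the day 0 libraries, at 34.8 to 58.6 TPM in d3con, at 0.11 to 0.19 TPM in d3ko, at 2.01 and 2.99 TPM in d2-FVFn and at 160 and 169 TPM in d2-FVFp, in the order its labels imply. The second d3ko library stood apart from the other 2 in its pluripotency markers (Pou5f1, Nanog, Sox2, Klf4, Zfp42 and Dppa5a), which summed to 2668 TPM against 15431 and 17364 TPM, so values that turn on it are given with and without it. The other 2 share a clone, and this library is the only d3ko library of its clone. Leaving it out therefore also leaves out a clone, and the spread between clones and between libraries cannot be told apart here.

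The family falls into selenium enzymes and cysteine enzymes. Gpx1 is the abundant cytosolic and mitochondrial form, Gpx2 is known from the gut epithelium, Gpx3 is secreted, and Gpx4 is the form that reduces lipid hydroperoxides within membranes and thereby guards cells against ferroptosis, an iron-dependent cell death. These 4 place selenocysteine, encoded by a recoded UGA, at the active site. Gpx7 and Gpx8 reside in the endoplasmic reticulum and use cysteine at that position.

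The coding sequence around the catalytic codon shows this split and is printed for all 6 members, since it is the feature that sets the selenium-dependent members apart. Each line gives 63 bases of the coding strand from the first-numbered GENCODE M21 transcript, with the catalytic codon in capitals and 30 bases on either side.
Gpx1: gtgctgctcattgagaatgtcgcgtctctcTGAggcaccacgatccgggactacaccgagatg
Gpx2: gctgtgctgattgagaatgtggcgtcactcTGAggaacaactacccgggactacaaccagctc
Gpx3: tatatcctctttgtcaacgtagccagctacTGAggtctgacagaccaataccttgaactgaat
Gpx4: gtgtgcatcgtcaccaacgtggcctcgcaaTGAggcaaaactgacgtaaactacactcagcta
Gpx7: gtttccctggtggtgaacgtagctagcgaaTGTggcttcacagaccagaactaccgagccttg
Gpx8: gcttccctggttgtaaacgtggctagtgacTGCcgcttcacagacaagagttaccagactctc

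The codon was TGA, annotated as selenocysteine, at codon 47 of Gpx1, codon 40 of Gpx2, codon 73 of Gpx3 and codon 129 of Gpx4, and it was the cysteine codon TGT at codon 56 of Gpx7 and TGC at codon 79 of Gpx8. It lay in exon 1 of Gpx1 and Gpx2, exon 2 of Gpx3, Gpx7 and Gpx8, and exon 3 of Gpx4. Over the 60 flanking bases, Gpx1 and Gpx2 were identical at 46 positions and Gpx7 and Gpx8 at 44, whereas every other pair was identical at 24 to 33. On GRCm38 (mm10) the genes lie at chr9:108339080-108340342 (Gpx1), chr12:76792335-76795554 (Gpx2), chr11:54902854-54910387 (Gpx3), chr10:80047166-80056439 (Gpx4), chr4:108400217-108406713 (Gpx7) and chr13:113042757-113046430 (Gpx8). Gpx2 lies within Fntb and Gpx8 within Cdc20b, each on the opposite strand and with 0 shared exon bases.

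Gpx1 was the highest member in the day 0 ESCs and was lower after differentiation in both genotypes. It was at 2575 and 2575 TPM in d0con, at 2512 and 2662 TPM in d0ko, at 755, 630 and 715 TPM in d3con, at 716, 705 and 692 TPM in d3ko, at 988 and 994 TPM in d2-FVFn, and at 904 and 1152 TPM in d2-FVFp. All day 0 libraries were above all others, and all day 3 libraries were below all doxycycline libraries. The mean TPM at day 3 was 3.68-fold lower in con and 3.67-fold lower in ko cells. The log2 fold change in the count fit was -2.09 (SE 0.12) for d3con against d0con and -2.05 (SE 0.12) for d3ko against d0ko. Among all genes ordered by TPM, Gpx1 ranked 33 to 38 at day 0 and 198 to 229 at day 3. Knockout and control overlapped on both days, with log2 differences of -0.03 (SE 0.14) at day 0 and 0.00 (SE 0.11) at day 3, and Venus-positive and Venus-negative cells overlapped too (0.01, SE 0.14). RNA was measured in bulk, so fewer cells with a transcript and less of it per cell cannot be told apart, for this and every gene below.

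**Figure D1:**
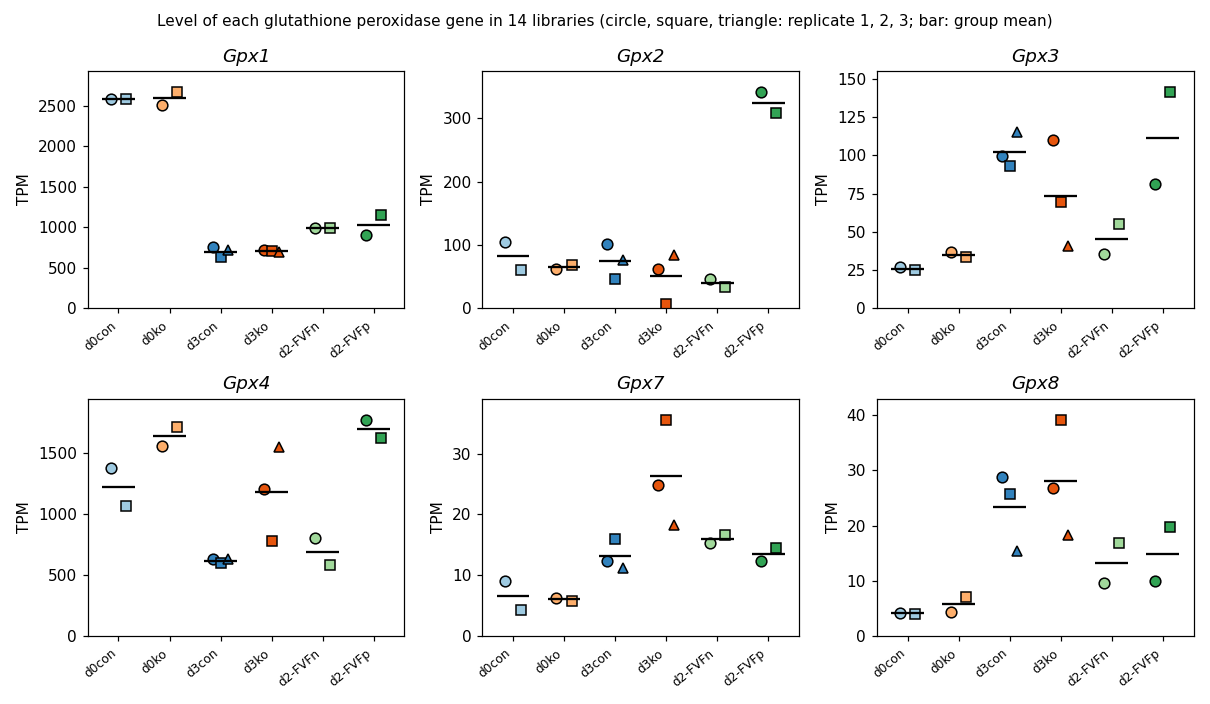
TPM of each of the 6 members (linear axes from 0) in the 14 libraries by group, with circles, squares and triangles for replicates 1, 2 and 3 and bars at the group means. Gpx1 sits at 2512 to 2662 TPM at day 0 and at 630 to 755 TPM at day 3 in either genotype, Gpx4 at day 3 is higher in each d3ko library than in any d3con library, and Gpx2 stands out in d2-FVFp at 308 and 341 TPM.

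Gpx4, the membrane lipid hydroperoxidase, differed from Gpx1 in that its day 3 level was higher in knockout than in control cells. It was at 1376 and 1064 TPM in d0con, 1558 and 1713 TPM in d0ko, 628, 598 and 629 TPM in d3con, 1201, 780 and 1545 TPM in d3ko, 803 and 581 TPM in d2-FVFn, and 1767 and 1619 TPM in d2-FVFp. The 3 d3con libraries lay between 598 and 629 TPM, whereas the d3ko libraries spread from 780 to 1545 TPM, and the groups did not overlap. At day 0 the d0ko libraries were already above the d0con libraries, with a log2 difference of 0.38 (SE 0.27) that was not called. The log2 difference between d3ko and d3con was 0.92 (SE 0.23), which was not called either. It was 1.15 without the second d3ko library, which had the lowest Gpx4 and the lowest pluripotency marker sum of the 3. That value rests on a single knockout clone at day 3.

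From day 0 to day 3, Gpx4 was lower by a log2 change of -1.19 (SE 0.25) in con cells and of -0.65 (SE 0.25) in ko cells, and the difference between these changes was 0.54 (SE 0.35). In the doxycycline line Gpx4 was 2.45-fold higher in Venus-positive than in Venus-negative cells by mean TPM (log2 1.24, SE 0.17), with no overlap of the libraries. Thus Gpx4 was higher in the Foxa2-lacking group of one system and in the Foxa2-expressing group of the other. Only the second of these differences was called. The pluripotency marker sum was 562 to 985 TPM in d3con and 2668 to 17364 TPM in d3ko, against 6385 and 7908 TPM in d2-FVFn and 4232 and 5758 TPM in d2-FVFp. Most of this sum is Dppa5a. The mean log2(TPM + 1) of the 6 markers was 4.49 to 5.49 in d3con and 6.64 to 8.82 in d3ko. It overlapped between d2-FVFn (7.64 and 7.97) and d2-FVFp (7.43 and 7.82). In d2-FVFp against d2-FVFn Klf4 was called higher (log2 1.29, SE 0.29, adjusted p = 0.0262 by edgeR). The other 5 pointed down without being called, at log2 -0.68 (Nanog), -0.64 (Dppa5a), -0.48 (Pou5f1), -0.42 (Sox2) and -0.26 (Zfp42). The part of these markers in the Gpx4 levels was not tested. The mean length of the Gpx4 transcripts, which weights its isoforms, lay between 958.87 and 961.12 bases in all day 0 and day 3 libraries. It was 0.94 bases shorter in d3ko than in d3con, with an exact two-sided permutation p of 0.1, the smallest that 3 against 3 can give (adjusted p = 0.333 over 5 comparisons).

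Gpx2 was the member with the widest gap between the doxycycline groups. It was at 46.0 and 34.4 TPM in d2-FVFn and at 341 and 308 TPM in d2-FVFp, an 8.07-fold difference in mean TPM (log2 2.97, SE 0.18). In the other groups it was at 105 and 59.7 TPM in d0con, 61.9 and 69.0 TPM in d0ko, 101, 46.6 and 76.7 TPM in d3con, and 61.5, 6.90 and 83.9 TPM in d3ko. Those 4 groups overlapped one another, and every d2-FVFp library was above every library of the other 5 groups. The lone low value, 6.90 TPM, came from the second d3ko library. The log2 differences were -0.34 (SE 0.75) for d3con against d0con, -0.53 (SE 0.75) for d3ko against d0ko and -0.56 (SE 0.68) for d3ko against d3con, the last being -0.05 without that library. The SE of Gpx2 was the largest of the 6 members in each comparison of the day 0 and day 3 groups.

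Reads of Gpx2 can be shared with a near-identical pseudogene, Gpx2-ps1, which was at 0.14 to 1.28 TPM in 12 libraries and at 4.56 and 4.91 TPM in d2-FVFp. It was higher there than in d2-FVFn by 3.58 on the log2 scale (SE 0.65), with 33.46 and 42.33 against 1.49 and 5.76 expected counts. It passed the count filter only through d2-FVFp, so no test is given for it. The pair moved in one direction, and RSEM's split between them is uncertain. Fntb, the host gene on the other strand, differed by -0.21 in the same comparison (log2, SE 0.17, adjusted p = 0.428), although the library kit does not mark strand.

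Gpx3, the secreted form, was higher at day 3 than at day 0. It was at 26.9 and 25.1 TPM in d0con, 36.6 and 33.3 TPM in d0ko, 99.3, 92.8 and 115 TPM in d3con, 110, 69.5 and 40.5 TPM in d3ko, 35.7 and 54.9 TPM in d2-FVFn, and 81.0 and 141 TPM in d2-FVFp. The day 3 libraries of each genotype were all above the day 0 libraries of that genotype, and the d3ko libraries spread so widely that they overlapped d3con. The log2 fold change was 1.77 (SE 0.36) for d3con against d0con, 0.90 (SE 0.34) for d3ko against d0ko and -0.48 (SE 0.30) for d3ko against d3con. Between d2-FVFp and d2-FVFn it was 1.25 (SE 0.30) without overlap, falling to 0.81 when the second d2-FVFp library was left out and to 0.99 when the first d2-FVFn library was.

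Gpx7 and Gpx8, the cysteine enzymes of the endoplasmic reticulum, had the lowest group means of the 6 in every group and were both higher at day 3 than at day 0. Gpx7 was at 8.98 and 4.27 TPM in d0con, 6.23 and 5.85 TPM in d0ko, 12.3, 16.0 and 11.3 TPM in d3con, 24.9, 35.5 and 18.3 TPM in d3ko, 15.4 and 16.6 TPM in d2-FVFn, and 12.4 and 14.5 TPM in d2-FVFp. All 3 d3ko libraries were above every other library, so that Gpx7, like Gpx4, did not overlap between d3ko and d3con (log2 0.98, SE 0.34, not called). The share of all genes without overlap was not counted for this or any other pair of groups. Groups this small separate easily, so a lack of overlap is a description of the libraries only. Its log2 fold change over the days was 0.78 (SE 0.39) in con and 1.94 (SE 0.41) in ko cells, and their difference was 1.16 (SE 0.54). Without the first d0con library, which had 8.98 TPM, the con value was 1.41 and the difference 0.53, and without the second they were 0.35 and 1.59.

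Gpx8 was at 4.26 and 3.96 TPM in d0con, 4.37 and 7.13 TPM in d0ko, 28.8, 25.7 and 15.5 TPM in d3con, 26.8, 39.1 and 18.4 TPM in d3ko, 9.55 and 16.8 TPM in d2-FVFn, and 9.98 and 19.8 TPM in d2-FVFp. Its log2 fold change over the days was 2.30 (SE 0.45) in con and 2.11 (SE 0.44) in ko cells. The genotypes overlapped at day 3 (0.25, SE 0.36), as did the doxycycline groups (0.13, SE 0.40). Cdc20b, around Gpx8 on the other strand, was below the count filter.

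Fibroblast feeder markers (12 genes, among them Col1a1, Col1a2, Col3a1 and Thy1) also differed between the day 0 and day 3 libraries, between which Gpx3, Gpx7 and Gpx8 differed. Their summed TPM was 13.7 and 15.4 in d0con, 39.9 and 141 in d0ko, 315, 55.9 and 221 in d3con, 299, 123 and 375 in d3ko, and 5.35 to 7.67 in the doxycycline libraries. Of the 12 markers, 0 to 2 were at 0 in a day 0 library, 0 in a day 3 library and 1 to 3 in a doxycycline library. Col1a1 was the largest part of the sum at day 3, with means of 110 TPM in d3con and 165 TPM in d3ko. In d3con against d0con 6 of the 11 tested feeder markers were called higher, and in d3ko against d0ko 1 was (Thy1). In the latter Dcn (log2 -2.63, SE 0.95) and Postn (-0.86, SE 1.05) pointed down without being called. The part of the feeder markers in the levels of Gpx3, Gpx7 and Gpx8 at day 3 was not tested. The d0ko library with a sum of 141 TPM had Gpx3 at 33.3, Gpx7 at 5.85 and Gpx8 at 7.13 TPM, against 36.6, 6.23 and 4.37 TPM in the d0ko library with a sum of 39.9 TPM. The feeder-free doxycycline libraries held Gpx3 at 35.7 to 141 TPM, Gpx7 at 12.4 to 16.6 TPM and Gpx8 at 9.55 to 19.8 TPM.

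**Figure D2:**
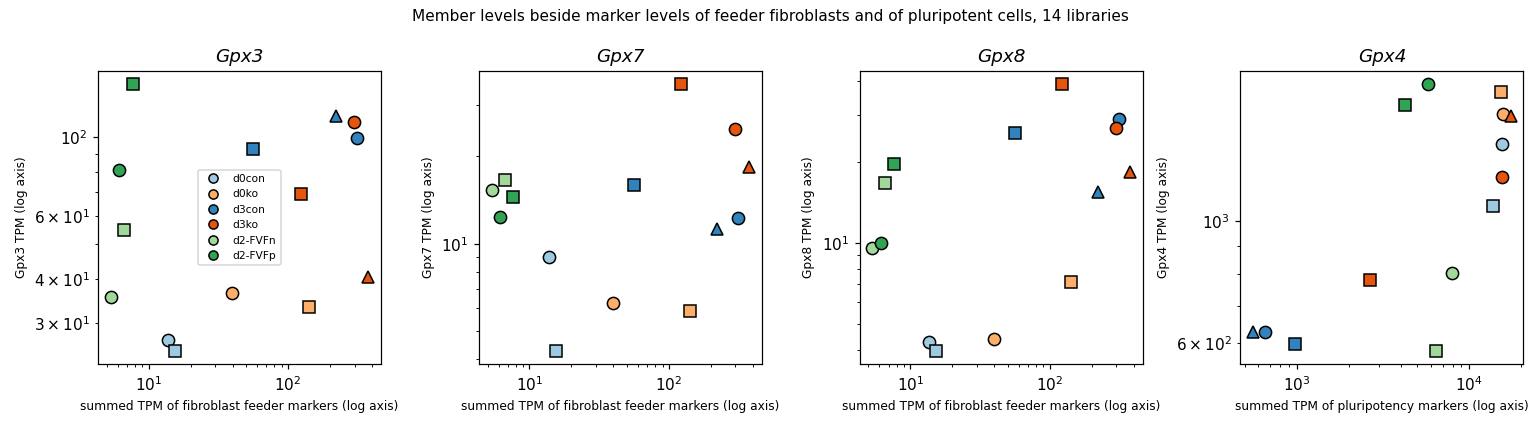
Levels of Gpx3, Gpx7 and Gpx8 against the summed TPM of 12 fibroblast feeder markers, and of Gpx4 against that of 6 pluripotency markers, in 14 libraries (all axes log10; colours are groups, symbols are replicates as in the plot of member levels). The doxycycline libraries lie at feeder sums of 5.35 to 7.67 and the day 3 libraries at sums of 55.9 to 375.

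By the rule used for all genes (Benjamini-Hochberg adjusted p below 0.05 and an absolute log2 fold change over 1), 35.2% of the 13899 genes tested were called in d3con against d0con, and 4 of the 6 members were (Gpx3 and Gpx8 higher, Gpx1 and Gpx4 lower). In d3ko against d0ko 17.3% of genes were called, and 3 members were (Gpx7 and Gpx8 higher, Gpx1 lower). In d3ko against d3con 8.26% of genes and 0 members were called by edgeR and 0 members by DESeq2. By edgeR 2 members (Gpx4 and Gpx7) had an unadjusted p under 0.05, beside 3878 of the 13899 genes tested. In d2-FVFp against d2-FVFn 8.43% of 12943 genes were called, and 3 members were (Gpx2, Gpx3 and Gpx4, each higher). In d0ko against d0con 0% of genes were called and 0 members had an unadjusted p under 0.05, while 195 of all genes did and DESeq2 called 1 gene and 0 members. In the genotype by day interaction 0% of genes were called by edgeR, 1840 genes and 0 members had an unadjusted p under 0.05, and DESeq2 called 565 genes and 0 members. All 6 members passed the count filter in both fits. These contrasts are those on which the family was selected, so nothing is read from the counts of members.

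**Figure D3:**
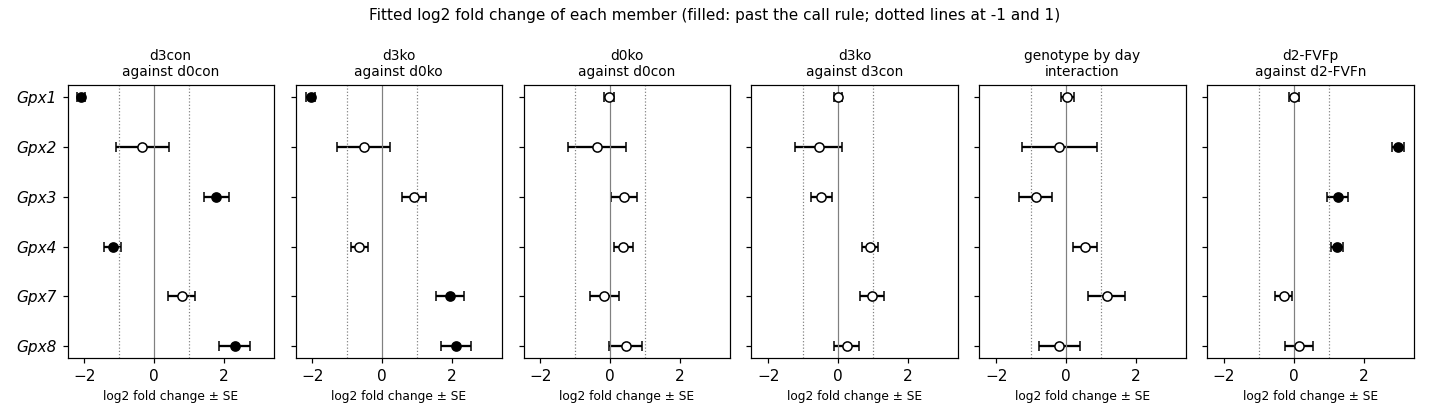
Fitted log2 fold change of each member with its SE in the 6 comparisons, from edgeR on rounded expected counts (filled circles meet the rule used for all genes, dotted lines at -1 and 1). Gpx1 is at -2.09 and -2.05 over the days and near 0 elsewhere, Gpx4 points down over the days and up in d3ko against d3con and in d2-FVFp against d2-FVFn, and Gpx2 has the longest error bars in the 5 comparisons of day 0 and day 3 groups.

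The makeup of the family shifted between groups, mostly between Gpx1 and Gpx4. The 6 members together made up 3914 ± 258 TPM in d0con, 4334 ± 220 in d0ko, 1532 ± 110 in d3con, 2058 ± 387 in d3ko, 1798 ± 141 in Venus-negative and 3184 ± 98.4 in Venus-positive doxycycline cells (SD, n = 2 or 3). Gpx1 held 65.9% of that sum in d0con, 59.7% in d0ko, 45.7% in d3con, 35.1% in d3ko, 55.3% in d2-FVFn and 32.2% in d2-FVFp. Gpx4 held 31%, 37.7%, 40.4%, 56.1%, 38.3% and 53.2% in the same order of groups. Gpx2 held 10.2% in d2-FVFp and at most 4.81% on average elsewhere, Gpx3 reached 6.69% in d3con, and the highest group means of Gpx7 and Gpx8 were 1.37% in d3ko and 1.53% in d3con.

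The ratio of Gpx4 to Gpx1 in TPM puts this shift into a single value per library. It was 0.534 and 0.413 in d0con, 0.620 and 0.643 in d0ko, 0.832, 0.949 and 0.879 in d3con, 1.68, 1.11 and 2.23 in d3ko, 0.813 and 0.584 in d2-FVFn, and 1.95 and 1.41 in d2-FVFp. Gpx4 was therefore above Gpx1 in every d3ko and d2-FVFp library and below it in all 9 others, and the second d3ko library had the lowest ratio of those 5.

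**Figure D4:**
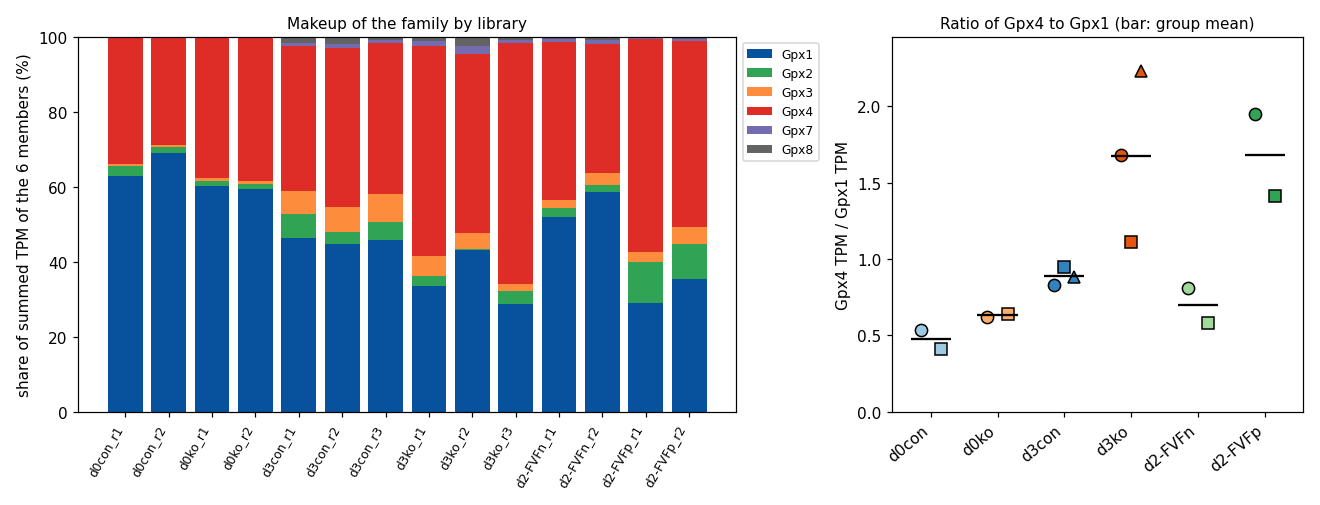
Left, share of the summed TPM of the 6 members held by each in the 14 libraries (percent). Right, Gpx4 TPM divided by Gpx1 TPM per library, with bars at group means, which lie above 1 in the 3 d3ko and 2 d2-FVFp libraries and between 0.413 and 0.949 in the others.

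Ordered by group mean, Gpx1 ran from d0ko and d0con, which overlapped, through d2-FVFp and d2-FVFn, which overlapped, to d3ko and d3con, which overlapped. For Gpx2 only the step from d2-FVFp to d0con was free of overlap. For Gpx3 the sole step without overlap was the last, from d0ko (35.0 TPM on average) to d0con (26.0 TPM). For Gpx4 the order was d2-FVFp, d0ko, d0con, d3ko, d2-FVFn and d3con, and of these neighbours only d0ko and d0con did not overlap. Across the 14 libraries, which share lines, clones and sorts and are not independent, Pearson's r of log2(TPM + 1) was 0.85 between Gpx7 and Gpx8 and 0.77 between Gpx3 and Gpx8, and it was -0.88 between Gpx1 and Gpx8, -0.82 between Gpx1 and Gpx7 and -0.72 between Gpx1 and Gpx3. Gpx4 had r between -0.48 and 0.53 with every other member.

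Gpx5, a secreted form known from the epididymis, was listed at 0 in 12 libraries and at 0.07 and 0.12 TPM in d2-FVFn. Gpx6, a close relative of Gpx3 known from the olfactory epithelium, was at 0.06 to 0.14 TPM in d3con, 0.42 to 1.28 TPM at day 0, 0.50 to 2.18 TPM in d3ko and 0.65 to 2.63 TPM in the doxycycline libraries.

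The genes whose profile over the 14 libraries was most like that of each member, out of 11101 genes searched by Pearson's r of log2(TPM + 1), were Pnp (r = 0.986), Hr (0.983) and AU015836 (0.977) for Gpx1, and Tle6 (0.887), Lamp1 (0.873) and Abr (0.871) for Gpx2. For Gpx3 they were Bex2 (0.950), Dusp16 (0.949) and Farp1 (0.947), and for Gpx4 Ildr1 (0.927), Cd97 (0.916) and Zfp750 (0.897). For Gpx7 they were Dlst (0.919), Appl1 (0.915) and Sox11 (0.900), and for Gpx8 Zyx (0.950), D5Ertd579e (0.949) and Ano10 (0.946). Pnp, the purine nucleoside phosphorylase, was at 171 ± 9.08 TPM in d0con, 35.0 ± 3.17 TPM in d3con and 34.6 ± 2.32 TPM in d3ko. Of these 18 genes, 3 remained by Spearman's rho and 6 when only the 10 day 0 and day 3 libraries were used, so the lists depend on the measure.

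Promoter windows of 250 bases before to 50 after the start were available from RefSeq (GRCm38) for all 6 genes, as 9 windows. None held TGTTTAC or TGTTTGC, core letters of Foxa motifs, or TGACNNNGC, the core of the antioxidant response element bound by Nrf2, on either strand. Of all 32851 such windows, 3.65%, 5.07% and 12.39% held them. With 9 windows and shares this low, the lack of a match says little about the family. The paper reports that most Foxa2 binding lay outside promoters, which these windows do not cover.

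The selenocysteine members of the family draw on glutathione, on NADPH to recycle it, and on selenium, and they share their substrates with other peroxidases. Genes of 7 lists covering these roles were not members and were tested over all genes by edgeR's quasi-likelihood test with Benjamini-Hochberg adjustment. In d3con against d0con 37 of the 98 tested list genes were called (20 higher, 17 lower), beside 35.2% of all genes. In d3ko against d0ko 16 of 98 were (9 higher, 7 lower), beside 17.3%, and in d3ko against d3con 12 of 98 (9 higher, 3 lower), beside 8.26%. In d2-FVFp against d2-FVFn 7 of 94 were called, each higher, beside 8.43%. In d0ko against d0con and in the interaction 0 were called, with 4 and 22 at an unadjusted p under 0.05 and 0 and 4 called by DESeq2. The median log2 fold change of the list genes was 0.01, -0.03, -0.01 and 0.10 in the first 4 comparisons, against 0.07, 0.07, 0.02 and 0.01 over all genes tested.

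In the control cells, glutathione synthesis and recycling had 2 of 15 genes higher and 3 lower at day 3. Chac1, which degrades glutathione, rose by 2.10 on the log2 scale (SE 0.63, adjusted p = 0.02), and it rose in the knockout too (2.96, SE 0.65, adjusted p = 0.0104). Gclm, the modifier subunit of the rate-limiting enzyme of glutathione synthesis, fell from 45.4 ± 4.21 to 18.5 ± 7.36 TPM (here and below mean ± SD over the libraries of a group, adjusted p = 0.00574), and Gsr, which reduces oxidised glutathione, fell from 191 ± 25.8 to 83.7 ± 18.6 TPM (adjusted p = 0.0144). Of the 10 genes of NADPH supply, 3 rose and 0 fell. Idh1, the cytosolic NADP-dependent isocitrate dehydrogenase, went from 50.4 ± 10.4 to 194 ± 21.7 TPM (log2 1.73, SE 0.26, adjusted p = 0.000958).

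The other enzymes that remove peroxide or superoxide were mixed in d3con against d0con, with 2 of 14 higher and 5 lower. Cat, the peroxisomal catalase, rose from 44.5 ± 0.516 to 130 ± 35.1 TPM (adjusted p = 0.00117). Prdx1, an abundant cytosolic peroxiredoxin, fell from 3451 ± 9.46 to 1672 ± 283 TPM (adjusted p = 0.00041), Sod2, the mitochondrial superoxide dismutase, from 88.6 ± 2.97 to 39.6 ± 2.65 TPM (adjusted p = 0.00137), and Srxn1, which repairs oxidised peroxiredoxins, from 17.1 ± 5.42 to 5.37 ± 1.69 TPM (adjusted p = 0.00514). In the knockout 1 of 14 was called, Prdx1, which fell by 1.02 on the log2 scale (SE 0.15, adjusted p = 0.00244).

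Few genes of selenium handling were called. Of 10 genes that insert selenocysteine or supply it, 1 was called over the days in con cells, Scly, which frees selenium from selenocysteine (log2 1.44, SE 0.39, adjusted p = 0.0127), and 0 in the other comparisons. Of 16 other selenoprotein genes 4 were called higher and 0 lower in con cells, beside 20.6% and 14.6% of all genes. Sepn1, a selenoprotein of the endoplasmic reticulum, rose from 1.30 ± 0.219 to 12.8 ± 3.29 TPM (adjusted p = 0.00064), Selo from 2.33 ± 0.870 to 12.0 ± 0.675 TPM (adjusted p = 0.000783), and Sepp1, the plasma selenium carrier, from 5.82 ± 1.21 to 23.9 ± 6.61 TPM (adjusted p = 0.00466). Sepn1 and Selo also rose in the knockout, by 2.22 (SE 0.41) and 1.51 (SE 0.30) on the log2 scale, with adjusted p of 0.00551 and 0.00724. In d2-FVFp against d2-FVFn 2 of 15 were called, Sepn1 (log2 1.92, SE 0.29, adjusted p = 0.008) and Sepp1 (log2 1.13, SE 0.19, adjusted p = 0.0114), both higher. Gpx1 thus went in the opposite direction to Sepn1, Selo and Sepp1 over the days in con cells, but other selenoprotein genes went down with it. Txnrd1 (log2 -0.79, adjusted p = 0.00651), 2700094K13Rik (-0.94, adjusted p = 0.00969), Msrb1 (-0.65, adjusted p = 0.0337) and Vimp (-0.39, adjusted p = 0.0463) were lower there. Selk was higher (0.44, adjusted p = 0.0213), and all of these fell short of the fold change rule.

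The glutathione transferases, which conjugate glutathione to other molecules, had 6 of 20 genes higher and 6 lower in d3con against d0con. Gsta3 fell from 12.8 ± 0.00707 to 0.360 ± 0.130 TPM (adjusted p = 0.000988) and Mgst1 rose from 1.48 ± 0.742 to 14.3 ± 1.22 TPM (adjusted p = 0.000662). In d3ko against d3con 7 were higher and 1 lower. Gstm3 was at 27.7 ± 18.9 TPM in d3ko and 4.16 ± 0.583 TPM in d3con (adjusted p = 0.0284), Gstm2 at 33.5 ± 20.5 and 6.51 ± 2.20 TPM (adjusted p = 0.026), and Gstp2 at 95.8 ± 63.3 and 16.1 ± 8.26 TPM (adjusted p = 0.0327). Gstp1 was lower in d3ko, at 402 ± 34.5 against 1365 ± 701 TPM (adjusted p = 0.0209). Gstm3, Gstm2 and Gstp2 were called higher in only 8, 10 and 7 of 19 alternative fits of d3ko against d3con, and Gstp1 was called lower in 12. Members of these families are close copies of each other whose reads RSEM divides, so a single paralog's value is uncertain. In the doxycycline line 3 of 18 were higher, among them Mgst3 at 201 ± 50.4 TPM in d2-FVFp and 62.6 ± 5.10 TPM in d2-FVFn (adjusted p = 0.00441).

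Among the 13 genes of the Nrf2 pathway and of ferroptosis, 2 rose and 3 fell over the days in con cells. Acsl4, which loads membranes with the polyunsaturated lipids that Gpx4 protects, rose from 7.90 ± 0.940 to 46.9 ± 7.32 TPM (adjusted p = 0.000598), and Aifm2, a ferroptosis suppressor that acts in parallel to Gpx4, fell by 2.50 on the log2 scale to 1.98 ± 0.146 TPM (SE 0.54, adjusted p = 0.00468). Nqo1, a standard Nrf2 target, fell from 38.8 ± 13.7 to 4.07 ± 2.52 TPM (adjusted p = 0.00191), and Bach1, a repressor of Nrf2 targets, rose from 1.21 ± 0.0566 to 7.20 ± 0.627 TPM (adjusted p = 0.00015). Over the days in ko cells Bach1 (log2 1.27, adjusted p = 0.00238) and Acsl4 (1.23, adjusted p = 0.0167) rose too. Nqo1 (-1.76, adjusted p = 0.0478) and Hmox1 (-1.01, adjusted p = 0.00722) fell there, and Aifm2 (0.37) and Tfrc (-0.48) were not called. In d3ko against d3con Aifm2 was higher (11.8 ± 8.11 TPM in d3ko, log2 2.79, SE 0.51, adjusted p = 0.0146), as was Tfrc, the transferrin receptor (log2 1.05, SE 0.20, adjusted p = 0.0168), whereas Fth1, the ferritin heavy chain, was lower (1096 ± 83.9 against 2600 ± 929 TPM, adjusted p = 0.0192). Aifm2 and Tfrc were called higher and Fth1 lower in 14, 13 and 12 of 19 alternative fits of that comparison.

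The p-values of d3ko against d3con count replicates 1 and 3 of each group, which came from the same clone, as separate samples. A fit without the second library of a group therefore holds that group as a single clone. The calls of the list genes in d3ko against d3con depended on single libraries. Their number was 12 with all libraries, 20 without the second d3ko library, 0 without the third d3con library, 1 without the first d3con library, 2 without the third d3ko library, 3 without the first d3ko library and 7 without either d0con library.

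**Figure D5:**
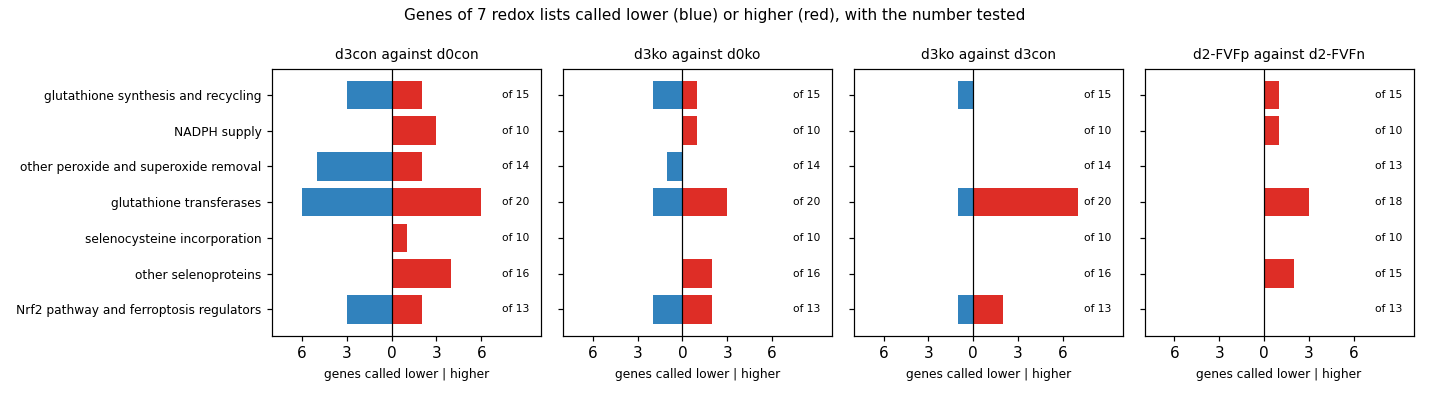
Number of genes of each of 7 redox lists called lower (left of 0) and higher (right of 0) in 4 comparisons, with the number tested beside each bar. Glutathione transferases had 6 in each direction over the days in con cells and 7 higher and 1 lower in d3ko against d3con, and every call between d2-FVFp and d2-FVFn was higher.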

How the data were processed

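RNA was amplified with the SMART-Seq v4 low-input kit, which does not mark strand, and sequenced as single reads. The authors aligned reads to mm10 with STAR and quantified each library with RSEM on RefSeq transcripts (versions not given in the sources used here). The deposited expected counts are unscaled RSEM estimates of the reads of each gene, and the deposited TPM values were scaled by the authors for transcript length and library total. Effective lengths showed that the first d3con and d3ko libraries were quantified as 75-base reads and the others as 50-base reads.

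Expected counts were rounded, genes with at least 1 CPM in at least 2 libraries of a fit were kept, and edgeR 4.0.16 (TMM, quasi-likelihood F test, R 4.3.3) was fitted to the 10 day 0 and day 3 libraries together (13899 genes) and to the 4 doxycycline libraries (12943 genes). The SE was derived as the size of the log2 fold change over the root of its F statistic. The fit was tested on simulated data. Alternatives were DESeq2 1.42.0, RLE scaling, other count filters, fits of the compared groups alone, replicate and clone blocks, pseudocounts of 1 and 0.1, and leaving out libraries. The members and the gene lists were chosen with earlier results of these data known. Named genes were the members, Gpx5, Gpx6, Foxa2, and per list and direction up to 3 called genes with the largest change, without overlap of the libraries and with at least 5 TPM in the higher group, from which examples are given; Gpx2-ps1, Fntb and Cdc20b were named after their values were seen. By the study's sample list, con and ko clones recur at both days under the same numbers, so the numbers pair samples by clone in the day comparisons, although deviations of same-numbered samples correlated only at -0.03 to 0.07. The block changed no call of a member. Counting intervals are not given, since amplified reads without molecular identifiers are not independent molecules. Sequences came from GENCODE M21 and RefSeq (GRCm38).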

Additional observations from a re-analysis of the deposited data

Results flagged for a closer look

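No member moved in opposite directions in the genotypes without overlap, and groups of 2 or 3 libraries are too small for a search for single outlying samples. For 2 list genes all day 3 libraries lay above all day 0 libraries in control cells and below them in knockout cells. Only the members and list genes were searched for this, so no share of all genes stands beside the count. Prdx2, a cytosolic peroxiredoxin, was at 1090 ± 128 TPM in d0con and 1528 ± 124 TPM in d3con, and at 1132 ± 18.5 TPM in d0ko and 1057 ± 74.1 TPM in d3ko (SD, n = 2 or 3), with an interaction of -0.55 (log2, SE 0.19, adjusted p = 0.27 by edgeR over all genes). Gstp1, a glutathione transferase with near copies in the genome, was at 528 ± 56.9 and 1365 ± 701 TPM in the control and at 522 ± 104 and 402 ± 34.5 TPM in the knockout groups, with an interaction of -1.72 (SE 0.57, adjusted p = 0.258). Neither interaction passed the correction.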

How the results depend on the processing

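Over the alternative fits the sign changed in 10 of the 36 member values, none of them among the 10 that were called, and 6 of the 10 were called in every one of them. Leaving out single libraries, the number of members called ranged from 3 to 4 in d3con against d0con (Gpx4 was lost without the first d0con library), from 1 to 4 in d3ko against d0ko, from 0 to 1 in d3ko against d3con and from 2 to 3 in d2-FVFp against d2-FVFn, and it was 0 throughout in d0ko against d0con and in the interaction. In d3ko against d0ko the calls of both Gpx7 and Gpx8 (1.81) were lost without the first d0ko library and that of Gpx7 also without the second (1.87), its change lying between 1.67 and 2.14 whichever library was left out, and Gpx3 was gained (1.19) without the third d3ko library. In d3ko against d3con 1 member, Gpx4, was called by the adjusted p alone, without the second d3ko library, and without the second library of both day 3 groups (chosen after seeing the data). The number of list genes called ranged from 25 to 40 in d3con against d0con, 6 to 23 in d3ko against d0ko, 0 to 20 in d3ko against d3con, 0 to 14 in the interaction and 5 to 8 in the doxycycline line. For d3ko against d3con it was 0 when only those groups were fitted, 0 without the 75-base libraries, 0 with the libraries of a clone summed (chosen after seeing the data) and 23 without the second library of both groups. For the interaction it was 4 with DESeq2 and 21 without the second libraries. By adjusted p alone it was 30 in d3ko against d0ko and 19 in the doxycycline line. Fewer samples enter several of these fits, and the cause of the shifts was otherwise not tested.

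In the fit with a replicate block, the number of list genes called in d3ko against d3con was 6 (3 higher, 3 lower) instead of 12, and the block changed no other number of called members or list genes by over 1.5 times. Same-numbered samples had correlated deviations of 0.52, 0.29 and -0.02 in that comparison, 0.10 and 0.10 at day 0 and 0.27 and 0.27 in the doxycycline line. At day 0 and in the doxycycline line each group held 2 samples, so the equality of the values follows from the calculation. Whether a shared number in the doxycycline line marks fractions sorted from 1 culture is not known here. With the replicate block 1497 of all genes were called in that line, against 1091 without the block. The number of all genes called also depended on the fit. In d3ko against d3con it was 1148 in the 10-library fit, 67 in the fit of those groups alone and 1 without the 75-base libraries, and without single libraries it lay between 80 and 2249. It was 1 in that comparison when the libraries of a clone were summed (chosen after seeing the data), so that each clone counted once. In d3ko against d0ko it was 2408, 1345 in the fit of those groups alone, and 667 and 974 without the first and the second d0ko library. The interaction gave 0 and, with DESeq2, 565, and without the second d3ko library 1118. In the doxycycline line it was 1091, and 562 and 616 without the first and the second d2-FVFn library. Of the 696 alternative values of member fold changes, 669 moved by less than the spread between replicates. Gpx1 was at -1.88 in con and -1.87 in ko cells on the log2(TPM + 1) scale, smaller than in the count fit.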
